A study of Drosophila melanogaster with 2 samples.

Results

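The proteasome subunit genes of Drosophila melanogaster were examined for binding of the zinc-finger protein Escargot (esg) in chromatin immunoprecipitation followed by sequencing (ChIP-seq) of whole embryos. The genes were all protein-coding genes whose symbol starts with Prosalpha, Prosbeta, Rpt and a digit or Rpn and a digit, which gave 48 genes of 13968 on the 7 chromosome arms. By symbol alone, 32 of them are the broadly expressed genes, and 16 carry a T or R suffix that marks a paralogue, many of them known to be testis-specific. Neither class was checked by expression, because the files used here hold peaks only. Of the 48 genes, 5 (10.4%) had a peak summit within 1000 bp of an annotated start site in the conservative peak list. The share of all protein-coding genes was 19.1% (2662 of 13968). All 5 were among the 32 broadly expressed genes (15.6% of these). They were Prosbeta2, Rpn3, Rpn5, Rpn11 and Rpn13.

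The embryos were 0 to 24 h old and came from an esg-GFP strain, which carries a fusion of esg to enhanced green fluorescent protein (eGFP), and an anti-GFP antibody was used for the precipitation. There is 1 group of 2 biological replicates, both carry the fusion, and no second genotype, stage or treatment was analysed here. A control alignment entered the peak calls, but no peaks of a control were analysed here. Whole embryos mix all cell types of all stages in that time span, so a peak cannot be assigned to a tissue.

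The proteasome degrades proteins tagged with ubiquitin. Its core particle is a stack of rings of alpha subunits (Prosalpha genes) and beta subunits (Prosbeta genes), of which beta1, beta2 and beta5 carry the proteolytic sites. The regulatory particle that caps the core consists of a base, with the Rpt ATPases that unfold and thread the substrate, and of a lid of Rpn subunits, while other Rpn subunits bind ubiquitin or hold the base together. Escargot belongs to the Snail family, whose members bind the E-box CAGGTG, and it is known for roles in diploid imaginal cells, tracheal fusion cells and intestinal stem cells.

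In the conservative list all summits at these genes lay upstream of the subunit gene. The DNA below the summits of 4 of the 5 genes is shown because it is the stretch the peaks mark, and the Rpn13 window is not shown here. The windows reach 100 bp to either side of the summit on the strand of the subunit gene, and they stop where an annotated exon begins. Sequence is that of the RefSeq assembly of the dm6 genome release, written 5′ to 3′. Capitals mark matches, on either strand, to CAGGTG, the E-box of the Snail family, and to TATCGATA, the DNA replication-related element (DRE), a motif of many housekeeping promoters. The Prosbeta2 window is chr3L:14999667-14999842 on the plus strand. The Rpn11 windows are chr2L:5059892-5060092 for the summit nearer to the gene and chr2L:5060095-5060295 for the farther summit, both on the minus strand. The Rpn3 window is chr2L:19051675-19051789, and the Rpn5 windows are chr3R:5789141-5789328 for the farther summit, which lies in an intron of the neighbour Hat1, and chr3R:5789385-5789492 for the nearer one, all on the plus strand.
Prosbeta2: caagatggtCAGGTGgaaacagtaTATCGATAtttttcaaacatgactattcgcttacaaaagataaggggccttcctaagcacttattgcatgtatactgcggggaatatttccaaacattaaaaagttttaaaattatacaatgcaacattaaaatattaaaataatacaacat
Rpn11, nearer summit: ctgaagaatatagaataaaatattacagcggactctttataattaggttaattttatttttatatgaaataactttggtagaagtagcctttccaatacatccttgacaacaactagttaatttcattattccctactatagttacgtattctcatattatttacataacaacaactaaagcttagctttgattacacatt
Rpn11, farther summit: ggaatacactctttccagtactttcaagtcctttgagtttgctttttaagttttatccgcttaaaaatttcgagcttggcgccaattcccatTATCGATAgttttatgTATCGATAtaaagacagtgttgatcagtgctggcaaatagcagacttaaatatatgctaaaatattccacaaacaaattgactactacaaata
Rpn3: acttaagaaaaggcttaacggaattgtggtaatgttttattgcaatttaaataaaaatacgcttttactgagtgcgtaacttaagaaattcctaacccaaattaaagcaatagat
Rpn5, farther summit: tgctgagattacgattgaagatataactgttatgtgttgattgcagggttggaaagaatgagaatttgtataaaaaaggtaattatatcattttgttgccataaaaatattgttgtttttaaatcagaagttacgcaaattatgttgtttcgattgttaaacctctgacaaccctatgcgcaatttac
Rpn5, nearer summit: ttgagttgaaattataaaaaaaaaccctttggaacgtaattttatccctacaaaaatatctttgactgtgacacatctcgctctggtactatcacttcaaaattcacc
The Prosbeta2 window was the only one of these with a CAGGTG match, and its TATCGATA match followed a few bases later. The farther Rpn11 window held a pair of TATCGATA matches around its centre. The windows of Rpn5 and the nearer window of Rpn11 held no match to either motif.

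For comparison, the bases before the start sites of the Prosbeta2 paralogues Prosbeta2R1 and Prosbeta2R2, which had no summit, are chrX:5808704-5808953 on the plus strand and chr3R:5219529-5219656 on the minus strand. The window of 250 bases was shortened at an annotated exon for Prosbeta2R2.
Prosbeta2R1: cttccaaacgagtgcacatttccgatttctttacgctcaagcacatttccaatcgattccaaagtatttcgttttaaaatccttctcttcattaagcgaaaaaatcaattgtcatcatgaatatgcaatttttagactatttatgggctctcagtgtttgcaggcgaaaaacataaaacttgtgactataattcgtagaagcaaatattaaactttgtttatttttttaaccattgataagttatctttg
Prosbeta2R2: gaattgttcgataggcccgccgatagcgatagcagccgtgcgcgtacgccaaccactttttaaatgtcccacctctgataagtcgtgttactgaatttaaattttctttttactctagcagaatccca
Neither stretch held a CAGGTG or TATCGATA match. The matches printed above for Prosbeta2 lie more than 250 bases before its start site, where these stretches do not reach. The absence of a match here therefore cannot be set beside them.

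The members were first set beside all genes. In the conservative list, 2662 of the 13968 protein-coding genes (19.1%) had a summit within 1000 bp, against 5 of the 48 subunit genes (10.4%). Of the broadly expressed genes the share was 15.6% (5 of 32), and of the paralogues it was 0 of 16. The share of all subunit genes and that of the broadly expressed genes were both below that of all genes. No test was made between the classes, since genes are not replicates and the list was chosen with earlier results of these data known.

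The 5 genes came from different parts of the particle. The shares by subunit group are to be read beside the 19.1% of all protein-coding genes. No alpha subunit gene of 12 and no Rpt gene of 9 had a summit. Of the 13 beta genes, Prosbeta2, the trypsin-like proteolytic subunit, had one (7.69%). Of the 14 Rpn genes, 4 had one (28.6%). In the lid, these were Rpn3 and Rpn5, scaffold subunits, and Rpn11, the metalloprotease that removes ubiquitin chains from substrates, 3 of 8 lid genes (37.5%). Of the 4 other broadly expressed Rpn genes (Rpn1, Rpn2, Rpn10 and Rpn13), Rpn13, a ubiquitin receptor, had a summit. With 5 genes in all, a single gene moves these shares by much, and the order of the subunit groups is a description only.

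Each of these 5 genes also had a peak in the separate list of each replicate. The conservative list was itself derived from the alignments of both replicates, so this presence is not independent support. The lists of replicates 1 and 2 placed a summit within 1000 bp of 14.8% and 15.8% of all protein-coding genes, and of the same 5 subunit genes and no other. The signal value of a peak is the authors' own, has no stated unit and is comparable only within a list. Ranks are given from 1 for the strongest peak, of 4397 peaks on the arms in the conservative list, 3105 in replicate 1 and 3351 in replicate 2.

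Rpn3 had the strongest peak of the 5 genes, with a signal of 237.1 and rank 731 in the conservative list, 153.2 and rank 501 in replicate 1, and 94.6 and rank 989 in replicate 2. This peak (chr2L:19051742-19051862, 121 bp) had its summit 15 bp before the Rpn3 start site. In the replicates the summit was 2 bp before and 28 bp after that site. It was above the median of every list, where medians were 108 in the conservative list, 74.1 in replicate 1 and 65.5 in replicate 2.

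Rpn13 had a peak on arm 2R (chr2R:13960269-13960604) with a signal of 127.2 at rank 1776, and its summit was 33 bp before the start site. The signal was 69.6 in replicate 1, rank 1685, and 56.4 in replicate 2, rank 2052. Both replicate values were below the median of their lists, while the value in the conservative list was above its median.

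Rpn5 had overlapping peaks, a stronger one with its summit 252 bp before the start site (chr3R:5789073-5789408, signal 128.8, rank 1750) and a weaker one at 53 bp before it (chr3R:5789272-5789607, signal 29.7, rank 4226). Each replicate list had 1 peak there that overlapped both, with a signal of 55.6 in replicate 1, rank 2267, and of 68.6 in replicate 2, rank 1551. The replicate summits were 152 bp and 255 bp before the start site. Replicate 2 was thus above its list median and replicate 1 below it.

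Rpn11 likewise had overlapping peaks, with summits 202 bp (chr2L:5059824-5060159, signal 92.1, rank 2689) and 405 bp (chr2L:5060027-5060362, signal 13.5, rank 4277) before the start site. Again 1 peak in each replicate overlapped both. Its signal was 52.7 in replicate 1, rank 2426, and 52.9 in replicate 2, rank 2214. The replicate summits fell 202 bp and 355 bp before the start site. The replicate 1 summit thus coincided with the nearer summit of the conservative list, while that of replicate 2 lay between both. At both genes the overlapping peaks carried the same −log10 of the irreproducible discovery rate (IDR, the authors' measure of agreement between replicates), 4.65 at Rpn5 and 4.11 at Rpn11. In the whole conservative list, 390 peaks (8.87%) overlapped another peak.

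Prosbeta2 had the weakest leading peak of the 5 genes (chr3L:14999574-14999909), with a signal of 79.9 at rank 3213 and its summit 209 bp before the start site. The signal was 43.0 in replicate 1, rank 2900, and 45.9 in replicate 2, rank 2586. The summits were 208 bp and 202 bp before the start site. The values were below the median in all of these lists, and the positions differed by less than 10 bp between the lists.

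**Figure D1:**
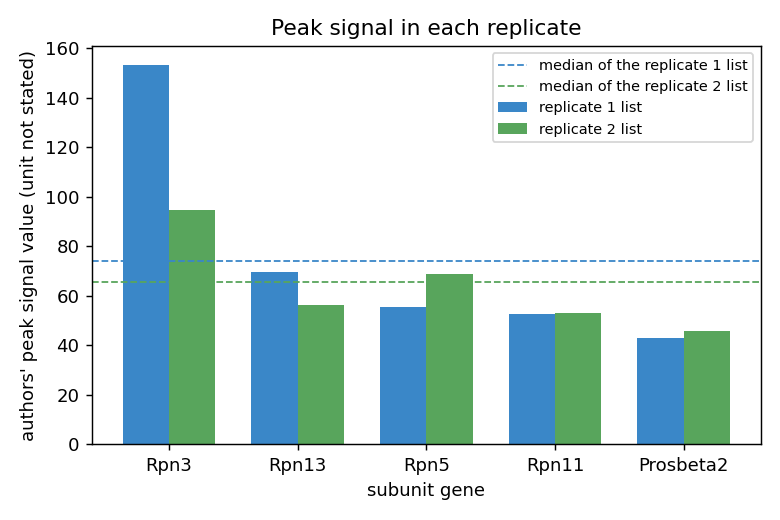
Signal value of the peak at each of the 5 subunit genes in the lists of replicate 1 (blue) and replicate 2 (green). Each bar is the authors' value of a single peak, with no error bar, and dashed lines mark the median of each list, 74.1 and 65.5. Rpn3 stands above both medians, Prosbeta2, Rpn11 and Rpn13 below both, and Rpn5 above that of replicate 2 only.

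Taking all 7 peaks at these genes, the median signal was 92.1 and the median rank 2689. Of the 7, 4 are the overlapping peaks of Rpn5 and Rpn11, whose weaker peaks (29.7 and 13.5) lower this median. With only the strongest peak of each of the 5 genes, the median signal was 127, a choice not made for the lists below. The side of the list medians on which these genes fall thus depends on how overlapping peaks are counted. The median was 108 over all peaks and 122 over the 2172 peaks within 1000 bp of any protein-coding start site. All 7 summits were upstream of the subunit gene. Scored by the nearest protein-coding start site, 6 of the 7 were upstream of it, against 78.2% of those 2172 peaks, and the exception was the stronger Rpn5 summit inside Hat1. By annotation at the summit base, 6 were intergenic and the farther Rpn5 summit was intronic.

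**Figure D2:**
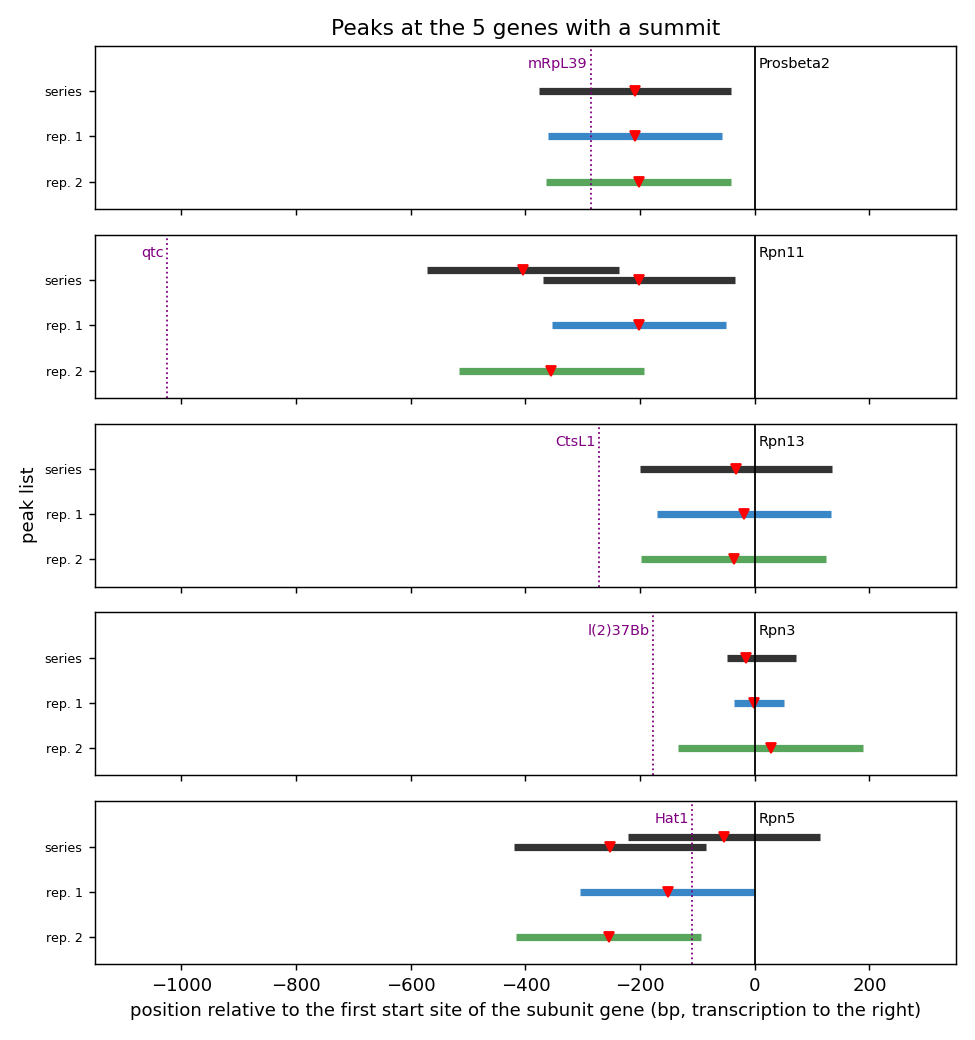
Peaks of the conservative list (series, black), replicate 1 (blue) and replicate 2 (green) at the 5 genes, in bp from the start site of the subunit gene (solid line), with transcription to the right. Red triangles are summits and the dotted line is the start site of the divergent neighbour. Rpn5 and Rpn11 have overlapping peaks in the conservative list and a single peak in each replicate.

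Several of these peaks lie in promoters shared with a gene transcribed the other way. Head-to-head neighbours within 1000 bp were found for 22 of the 48 subunit genes, 19 of the 32 broadly expressed genes (59.4%) and 3 of the 16 paralogues (18.8%), against 35.2% of all genes. A summit was found at 32.4% of all genes with such a neighbour and at 11.8% of those without. For the subunit genes the counts were 4 of 22 (18.2%) and 1 of 26 (3.85%), each below the share of the matching background.

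The neighbours of the 4 genes were mRpL39, a mitochondrial ribosomal protein gene whose start site is 285 bp from that of Prosbeta2, CtsL1, a cathepsin gene 271 bp from Rpn13, l(2)37Bb, 178 bp from Rpn3, and Hat1, a histone acetyltransferase gene 109 bp from Rpn5. The Rpn11 start site is 1025 bp from that of qtc, just past the limit of 1000 bp. The Prosbeta2 summit was nearer to mRpL39, 76 bp from its start site, than to Prosbeta2. The stronger Rpn5 summit was 143 bp inside Hat1, also nearer to Hat1 than to Rpn5. At Rpn13 the summit was 238 bp and at Rpn3 163 bp from the neighbour, in both cases nearer to the subunit gene. Counted only for the gene with the nearest start site, Prosbeta2 lost its peak and 4 genes were left, with 13.7% of all genes. The peaks do not tell which gene of a head-to-head pair a bound protein acts on.

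A head-to-head arrangement was also frequent among the broadly expressed genes with no summit, at 15 of 27 (55.6%). Close pairs with no summit were Rpt5 and RanBP3 at 42 bp, Rpt4 and mldr at 58 bp, Rpt2 and CG13599 at 81 bp, Prosalpha4 and kat80 at 90 bp, and Prosbeta5 and dgo at 94 bp. These spacings were smaller than any of the 5 with a summit.

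The distance to the nearest summit separated the genes over a wide range, from 15 bp at Rpn3 to 77028 bp at Prosbeta4R1. The 5 genes above had a summit at most 209 bp away. The closest summit of any other member was 1129 bp from Prosbeta6, a core subunit without a proteolytic site, and it had a signal of 84.8 and lay 58 bp from the start site of CG4098. Rpn2, the base scaffold that holds Rpn13, came next, with a summit of signal 63.4 at 1665 bp that lay 65 bp from eIF2D. Between 209 and 1129 bp there was thus no member, so any limit in that span gives the same 5 genes.

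**Figure D3:**
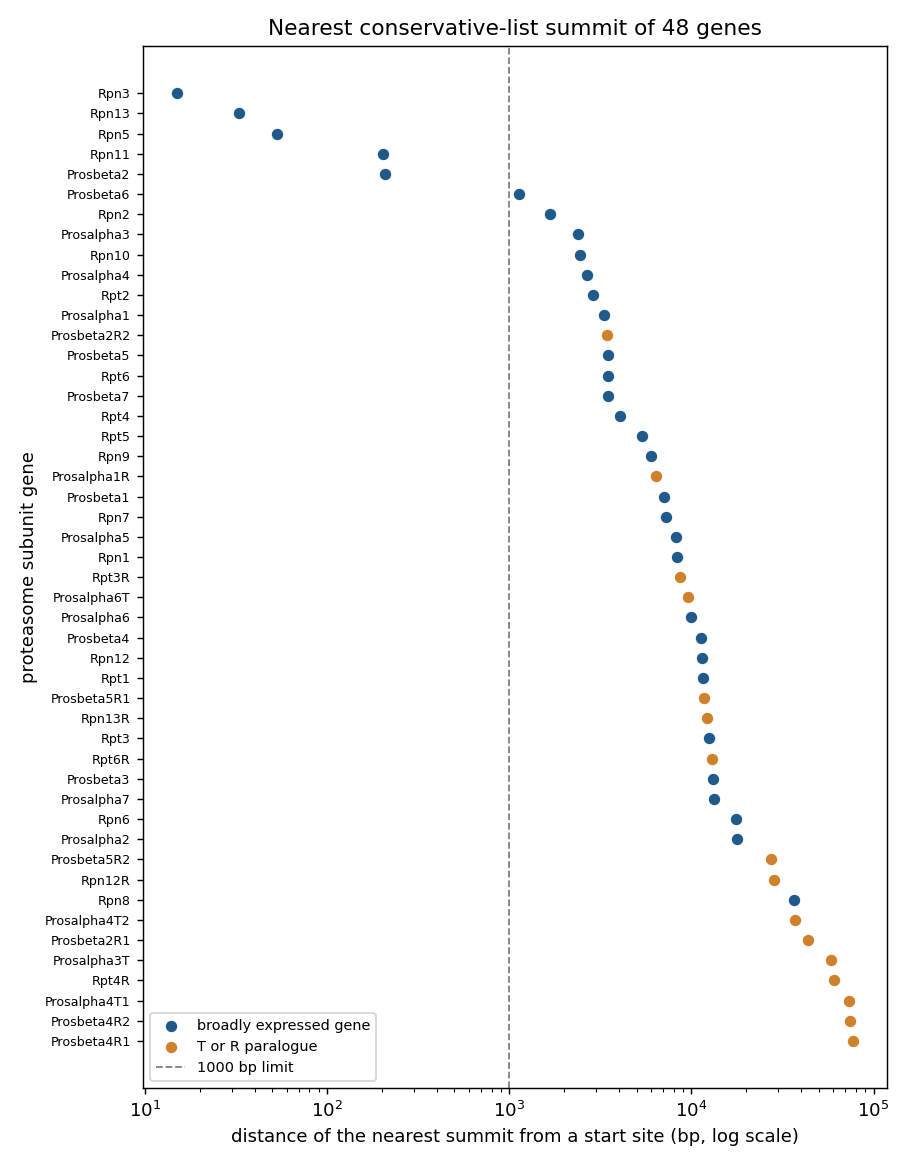
Distance in bp (log scale) from a start site of each of the 48 genes to the nearest summit of the conservative list, for broadly expressed genes (blue) and T or R paralogues (orange). The 5 genes left of the dashed 1000 bp line are separated from Prosbeta6, at 1129 bp, and paralogues fill the far end, up to 77028 bp.

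Many of the nearest summits beyond 1000 bp were strong peaks at the start site of another gene. The first examples below are among the strongest. Others were below the list median of 108, such as 65.0 for Prosalpha6 and 69.5 for Prosbeta3. For Prosbeta5R1 and Rpn13R, no other protein-coding gene had a start site nearer to the summit than their own. For Prosalpha2 the nearest summit, 17846 bp away, had a signal of 1292.1 and was 129 bp from CG18549. For Rpt5 it was 5336 bp away with a signal of 496.7, at 127 bp from PTPMT1. For Prosalpha5 it was 8239 bp away with a signal of 443.4, at 299 bp from l(2)k01209. For Rpn6, the lid subunit that touches the core, it was 17486 bp away and 73 bp from BEAF-32, an insulator protein gene. Rpn8, the partner of Rpn11, was the most isolated broadly expressed gene at 36484 bp.

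The median distance to the nearest summit was 4706 bp for the broadly expressed genes, 27842 bp for the paralogues and 8114 bp for all protein-coding genes. Within 5000 bp, a summit was found for 16 of 32 broadly expressed genes (50%), 1 of 16 paralogues (6.25%) and 38% of all genes. Within 10000 bp the numbers were 23 (71.9%), 4 (25%) and 55.4%. Within 50000 bp all 32 broadly expressed genes had one, with 11 of 16 paralogues (68.8%) and 91.6% of all genes.

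**Figure D4:**
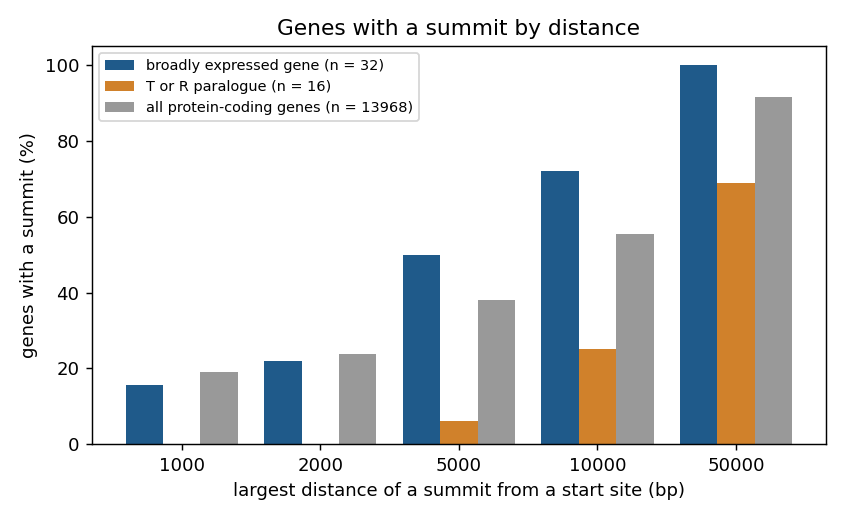
Share of genes (%) with a conservative-list summit within 1000, 2000, 5000, 10000 and 50000 bp of a start site, for 32 broadly expressed genes, 16 T or R paralogues and all 13968 protein-coding genes. The broadly expressed genes run from 15.6% to 100%, the paralogues from 0 to 68.8%.

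Each paralogue was then set beside the broadly expressed gene of the same subunit. The 16 pairs have only 12 parents, so they are not all separate comparisons. In 14 of 16 pairs the paralogue was farther from a summit. The exceptions were Prosalpha6T, at 9538 bp against 9993 bp for Prosalpha6, and Rpt3R, at 8607 bp against 12454 bp for Rpt3. For 3 paralogues the parent had a summit of its own. Prosbeta2R1 and Prosbeta2R2 lay 43949 bp and 3446 bp from a summit, against 209 bp for Prosbeta2. Rpn13R lay 12135 bp away, against 33 bp for Rpn13.

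Wide gaps were also found for Prosbeta4R1 and Prosbeta4R2, at 77028 bp and 74680 bp against 11277 bp for Prosbeta4, for Prosalpha3T at 58518 bp against 2394 bp for Prosalpha3, for Prosalpha4T1 and Prosalpha4T2 at 72936 bp and 37129 bp against 2659 bp for Prosalpha4, and for Rpt4R at 61022 bp against 4076 bp for Rpt4. Prosbeta4R1 and Prosbeta4R2 share their nearest summit, which lies near CG31689, so they are not separate observations. Prosalpha1R and its parent Prosalpha1 share theirs too, near phr at 6392 bp and 3299 bp, so that this pair, which is among the 14, differs only by the spacing of the copies. The pairs also differ in gene structure. A paralogue had fewer exons than its parent in 10 of 16 pairs, and 6 of 16 paralogues had 1 exon against 4 of 32 broadly expressed genes and 15.3% of all genes. The part of exon number, gene neighbourhood or head-to-head promoters in the difference in distance was not tested.

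The ranked list, which holds peaks before the IDR threshold, shows how near the other genes came. It placed a peak within 1000 bp of 67.1% of all genes and of 35 of the 48 subunit genes (72.9%), 26 of 32 broadly expressed (81.2%) and 9 of 16 paralogues (56.2%). All 8 lid genes had one. The median signal of a gene's strongest ranked peak was 36 for the broadly expressed genes (from 11.7 to 237), 29.2 for the paralogues (from 7.28 to 56.7) and 36.2 for all genes with such a peak.

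The threshold lies at a −log10 IDR of 2. The values given here are those of each gene's strongest ranked peak within 1000 bp. Whether a weaker peak of a gene had a higher value was not examined. The 5 genes with a summit had values from 3.44 at Prosbeta2 to 5 at Rpn3. Just below the threshold were Rpn6 with 1.92 (signal 57.2, 123 bp before the start site) and Prosbeta7, a core subunit, with 1.60 (signal 52.5, 122 bp after it). By this measure, the paralogues nearest to the threshold were Prosbeta5R2, of the chymotrypsin-like subunit, with 1.38 (signal 56.7, 555 bp after the start site) and Prosalpha6T with 1.34 (signal 50.3, 762 bp after it).

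The replicate signals that follow are those of the strongest ranked peak within 1000 bp of the gene in each replicate. They were not matched by overlap to the peak whose IDR is given. At Rpn6 both replicate ranked lists held a peak, with signals of 29.9 and 26.0 in replicates 1 and 2. Rpn7, a lid scaffold subunit, had the highest ranked signal of a gene with no summit, 60.3, but a −log10 IDR of 0.556, and its replicate signals were 42.6 and 18.3. Rpn8 had 55.6 with a −log10 IDR of 0.607 and replicate signals of 34.6 and 21.7. Prosbeta1, the caspase-like proteolytic subunit, had 48.5 with 0.489 and replicate signals of 32.4 and 16.9. None of these replicate peaks passed the threshold of its list.

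**Figure D5:**
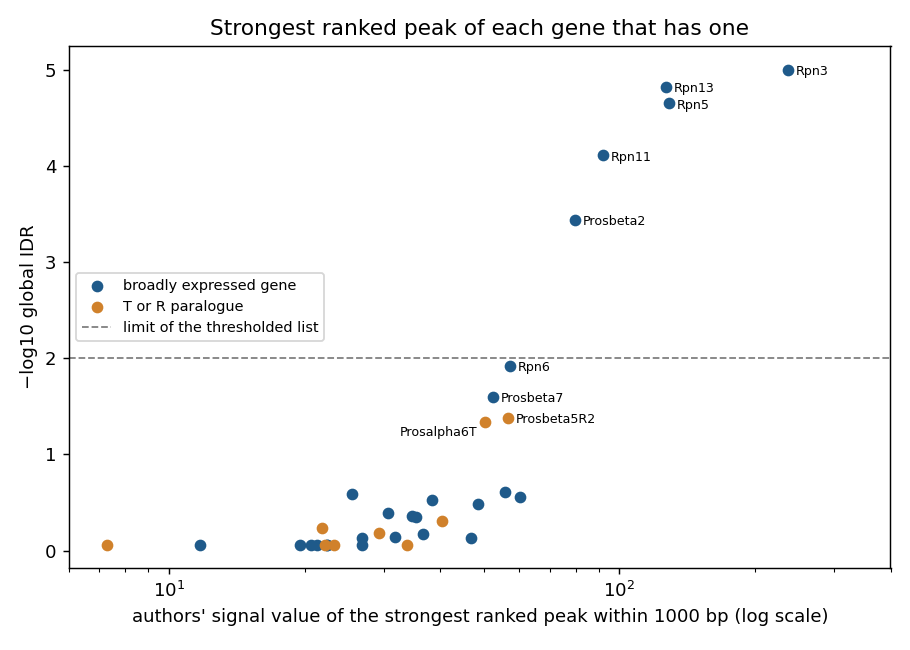
Strongest peak within 1000 bp of a start site in the ranked list for the 35 genes that have one. The horizontal axis is the authors' signal value (log scale, no stated unit), the vertical axis the −log10 IDR, and the dashed line marks the threshold of 2. The 5 labelled genes above it are all broadly expressed, and Rpn6 at 1.92 is the next.

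No peak of the series ranked list was found within 1000 bp of 13 genes. These were the broadly expressed Prosalpha1, Prosbeta4, Prosbeta5, Rpn1, Rpn10 and Rpt5, and the paralogues Prosalpha1R, Prosbeta4R1, Prosbeta4R2, Prosbeta5R1, Rpn12R, Rpn13R and Rpt6R. Of these, Rpn1, Prosbeta4R1 and Rpn13R had a peak in the ranked list of replicate 1 only. Rpt5, Prosbeta5R1 and Rpn12R had one in that of replicate 2 only. Prosalpha1 and Prosalpha1R are neighbouring copies, and 100% of the 50-base words within 1000 bp of either start site occur elsewhere in the genome too. How reads with several matches were treated is not given in the sources used here, so the absence of a peak at this pair cannot be read. The repeated share was 3.38% at Rpn3, 1.59% at Prosalpha3 and 0 at the other 44 genes.

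Promoter sequence differed between the classes in the same windows, from 250 bases before to 50 after the start. TATCGATA was found in 12 of 32 broadly expressed promoters (37.5%) and in 0 of 16 paralogue promoters, against 9.36% of all promoters. The 12 genes were Prosalpha3, Prosalpha5, Prosalpha6, Prosbeta1, Prosbeta2, Prosbeta6, Rpn3, Rpn7, Rpn9, Rpn12, Rpn13 and Rpt5. Of the 5 genes with a summit, Prosbeta2, Rpn3 and Rpn13 had it, and of the 27 broadly expressed genes without one 9 had it (33.3%). The core of Ohler motif 1, GGTCACACT, which is common in housekeeping promoters, was in 5 of 32 broadly expressed promoters (15.6%) and no paralogue promoter, against 6.04% of all. None of the 5 genes with a summit had it.

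CAGGTG was in the promoters of Prosalpha2 and Prosbeta4R2, neither of which had a summit, and in 9.31% of all promoters. TGACNNNGC, the form bound by relatives of Cap-n-collar, was in 5 broadly expressed promoters and 1 paralogue promoter, against 8.62% of all. GAGAGA, bound by the GAGA factor, was in 3 paralogue promoters and no broadly expressed promoter, against 12.3% of all. Both strands were searched for all 5 motifs. The reverse of GGTCACACT holds TGAC, and its matches at Rpn1 and Prosbeta3 overlapped a TGACNNNGC match. The median GC content was 33.5% in the broadly expressed promoters, 32.7% in the paralogue promoters and 38% in all promoters. A match describes the letters of the window and does not show a bound site.

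Around the summits themselves, within 100 bp, TATCGATA was found in 3 of the 7 windows, at 3 of the 5 genes. It was in 2.09% of all summit windows of the conservative list and in 3.96% of those within 1000 bp of a protein-coding start site. The matches began 51 bp before the Prosbeta2 summit, 8 bp before and 8 bp after the weaker Rpn11 summit, and 91 bp after the Rpn3 summit, which is past the stretch printed above. With the window at 50 bp either side, only Rpn11 was left, with no share of all windows given at that width. At Prosbeta2 and Rpn3 these matches are not the ones found in the promoter windows, which begin 10 bp and 197 bp before the start sites. CAGGTG was found at Prosbeta2 alone, 66 bp before the summit, against 5.28% of all summit windows and 5.20% of those near a start site. The other 3 motifs were in no window of a subunit gene, against 1.24% of the summit windows near a start site for the Ohler motif 1 core, 3.82% for TGACNNNGC and 8.06% for GAGAGA. GC content ranged from 25.9% at Rpn13 to 33.8% at the nearer Rpn5 summit, with a median of 33.3% over all summit windows.

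Genes that work with the proteasome were counted in the same way. Of 17 genes for assembly factors, regulators and partners, 5 had a summit (29.4%). The strongest peaks were those of Keap1, the inhibitor of the stress factor Cap-n-collar, with a signal of 322.5 at 935 bp before the start site, of Pomp, the chaperone of core particle assembly, with 275.0 at 241 bp before it, and of cnc, which encodes Cap-n-collar, a relative of the mammalian activators of proteasome genes, with 106.7 at 326 bp after it. These 3 peaks were in both replicate lists. The others were ntc, an F-box protein of spermatid differentiation, with 88.1, and maf-S, the partner of Cap-n-collar, with 53.0, whose peak was in neither replicate list.

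Among 5 genes for ubiquitin and its activating enzyme, RpS27A, a fusion of ubiquitin with a ribosomal protein, had a summit (signal 84.3, in replicate 1 only). The lid shares its domains with the COP9 signalosome and with translation initiation factor eIF3. Of 9 signalosome genes, alien, which encodes the second subunit, had a summit (11.1%), and its signal of 667.2 at rank 96 exceeded that of every subunit gene. Of 16 eIF3 genes, 3 had a summit (18.8%), namely eIF3c with 260.1, eIF3h with 149.3 and eIF3m with 86.9, the last in replicate 1 only. These shares rest on few genes and were read beside the 19.1% of all genes.

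By chromosome arm, summits were found at 2 of 8 subunit genes on 2L, against 19% of all protein-coding genes there, and at 1 of 13 on 2R, against 17.8%. They were found at 1 of 7 on 3L, against 20.6%, at 1 of 14 on 3R, against 19.4%, and at 0 of 6 on X, against 19.2%. With so few genes per arm, no difference between arms can be read.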

How the data were processed

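Peak lists from whole embryos with an esg-eGFP fusion were analysed (2 replicates of 1 group). Text files deposited beside the lists say that the authors derived the dm6 peaks from replicate alignments and a control alignment. The sources used here do not name the aligner or the peak caller, and read depth is unknown. Each peak has a signal value deposited by the authors, used only within a list. In ranked lists, the authors deposited a −log10 global IDR, and all peaks of the conservative list had at least 2, an IDR of 0.01. Of the lists, 8 further columns per ranked list and 1 ranked list were not used.

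A gene had a summit if one lay within 1000 bp of the 5′ end of any transcript in Ensembl release 115 (BDGP 6.54), and divergent start sites lay within 1000 bp head to head. A replicate peak was matched by an overlap of at least 1 bp. For genes below the IDR threshold, replicate signals are instead those of the strongest ranked peak within 1000 bp. Counts are descriptions, with no test. The members, lists and motifs were chosen with earlier results of these data known. Named were all members with a summit, the others by name or nearest summit, their neighbours, and the 3 strongest of each other list. Of the regulators, ntc and maf-S, and the members nearest to the IDR threshold or singled out by distance, were named after their values were seen. Alternatives were other lists, distances, start sites and assignments. The assignment was tested on simulated data. Python 3.11.15, numpy 2.4.6, pandas 2.3.3 and matplotlib 3.10.9 were used.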

Additional observations from a re-analysis of the deposited data

How the results depend on the processing

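The count of 5 subunit genes with a summit, all broadly expressed, was the same 5 genes in the other series list, in each replicate list alone, without peaks of signal under 20, within 500 bp and with the start of the gene record alone. The limit of 500 bp and the removal of signals under 20 could not have changed this set. Each of the 5 genes has a peak of signal 79.9 or more within 500 bp, and neither alternative can add a gene. The replicate lists are not independent of the conservative list, which was derived from both replicates. Among the stronger peaks of the conservative list (its upper part by signal, split at the median), the count was 3 (Rpn3, Rpn5 and Rpn13), with 12% of all genes. Within 2000 bp it was 7, with Prosbeta6 and Rpn2, and by nearest start site 4. The paralogues had 0 in all 9 alternatives, but those that only drop peaks, start sites or distance could not have given more. Only the other series list, the single replicate lists and the limit of 2000 bp could have. The median signal at the members ranged from 55.6 to 56.4 in the single replicate lists, whose scales differ from the main list. It was 129 in the upper part of the list and 110 without signals under 20, both because weak peaks were removed. Genes with TATCGATA near a summit were 1 with 50 bp and 4 with 200 bp either side. The share of all summit windows is not given here for these widths, so these counts cannot be set beside it. Divergent neighbours numbered 20 within 500 bp and 26 within 2000 bp.

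No paired analysis was possible because there is 1 group and no test. Signal values have no stated unit and depth is unknown, so an absent peak, as at Rpn6 just below the threshold, is not evidence of absent binding.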
